A study of Mus musculus with 84 samples.

Results

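The genes described here build, crosslink and cut the collagen matrix: the collagen chains, the lysyl oxidases Lox and Loxl1 to Loxl4, the matrix metalloproteinases (Mmp) and the tissue inhibitors of metalloproteinases (Timp1 to Timp4). They were picked by a pattern of gene names, fixed with earlier results of these data known, and by a background filter. The names matched 71 array genes, of which Col4a3bp was set aside because it encodes a ceramide transfer protein and no collagen. Of the other 70 genes, 63 were measured in inguinal adipose tissue (IAT) and 47 in liver, where a gene counts as measured if a probe of it stood well above background, in a treated group or in the control pool, on 50% or more of the arrays. In all, 46 genes were measured in both tissues, Mmp25 only in liver, and Col19a1, Col9a1, Mmp1a, Mmp20, Mmp21 and Mmp8 in neither. The whole array held 27845 named genes, of which 20768 passed in IAT and 17442 in liver.

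All animals, the controls included, were db/db mice (strain BKS Cg-m+/+ Leprdb/J), which lack a functional leptin receptor and become obese and diabetic. Mice were treated by mouth for 18 days with rosiglitazone (RSG), an agonist of the nuclear receptor PPAR-gamma, or with the S compound, known here only by that letter, at 28, 84 or 280 µmol/kg. The study's methods describe the RSG animals as male and 8 weeks old when obtained. There were 6 mice in each of the 12 combinations of tissue, compound and dose, and the RNA of each was hybridised on a dye-swapped pair of arrays against 1 pool of RNA from 6 control db/db mice of the same tissue, so that a value below is the log2 ratio of a mouse to that pool. The pool is a single control sample, shared by both compounds and all doses, and the spread between control mice enters no test. Means are given with the SE of the limma fit, which pools a gene's spread over all 36 mice of a tissue and is therefore the same for each of its groups, while the lowest and highest mouse show the spread within a group. A gene is called upregulated or downregulated where its adjusted p (limma, Benjamini-Hochberg over all probes tested in the tissue) was under 0.05.

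As background, fibrillar collagens such as types I, III and V form the tensile fibres of connective tissue. Type IV collagen makes the sheet-like network of basement membranes, and type VI forms beaded filaments around cells. Lysyl oxidases crosslink collagen and elastin outside the cell, matrix metalloproteinases cleave matrix proteins, and the Timps bind and block those proteases. Every adipocyte sits in a basement membrane, and adipose matrix is remodelled as fat depots grow or shrink, while in liver the fibrillar collagens are best known from fibrosis.

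Secreted metalloproteinase genes are textbook targets of the transcription factor AP-1, whose binding element reads TGANTCA and is its own reverse complement. In the RefSeq windows of 250 bases before the gene start (assembly GRCm38.p6), that element was found in 8 of the 53 genes with a window, Col6a1, Mmp10, Mmp12, Mmp13, Mmp1a, Mmp20, Mmp3 and Mmp7, against 6.75% of all 32851 windows. The TATA box letters TATAAA, searched on both strands, were in 12 of the 53 genes and in 12.4% of all windows. The DR1 element, the direct repeat with a single base between its copies that PPAR-gamma binds, was in none of the 53 genes and in 0.0335% of all windows. The 53 genes had 59 windows, and a gene was counted if any of its windows held the letters, so counts of genes stand beside shares of windows. These matches describe letters and no binding. The windows of Mmp3, Mmp12 and Mmp13, the secreted proteases whose IAT values are given below, are printed because the element lies close to the gene start in each, 46, 44 and 35 bases before it. Capitals mark the element. All 3 windows lie on the plus strand of chromosome 9, at chr9:7445572-7445821 for Mmp3, chr9:7347124-7347373 for Mmp12 (1 of its 2 windows) and chr9:7272264-7272513 for Mmp13.
Mmp3: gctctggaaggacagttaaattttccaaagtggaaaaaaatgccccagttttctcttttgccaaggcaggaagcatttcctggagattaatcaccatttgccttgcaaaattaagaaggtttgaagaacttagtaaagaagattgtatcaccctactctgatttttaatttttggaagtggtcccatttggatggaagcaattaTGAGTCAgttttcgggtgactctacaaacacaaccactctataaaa
Mmp12: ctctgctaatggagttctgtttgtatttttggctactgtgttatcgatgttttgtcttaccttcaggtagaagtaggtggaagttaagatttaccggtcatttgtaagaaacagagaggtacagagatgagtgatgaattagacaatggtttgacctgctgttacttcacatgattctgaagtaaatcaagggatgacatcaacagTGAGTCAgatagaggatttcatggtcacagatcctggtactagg
Mmp13: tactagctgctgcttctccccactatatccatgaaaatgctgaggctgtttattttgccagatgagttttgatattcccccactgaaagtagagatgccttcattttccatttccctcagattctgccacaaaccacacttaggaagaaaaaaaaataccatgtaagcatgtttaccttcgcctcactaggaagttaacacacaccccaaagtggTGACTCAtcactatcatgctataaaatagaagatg

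The treated channel was well above background for 61.8% to 78.2% of probes in IAT and for 43.4% to 65.8% in liver. The median log2 ratio over all probes lay between 0.03 and 0.06 in the 6 IAT groups and between -0.05 and -0.02 in the 6 liver groups. Some mice stood apart from the others of their group over all probes. Mouse 5 of IAT RSG 28 correlated with the mean of the others at r = 0.299, mouse 2 of liver RSG 280 at 0.460 and mouse 2 of IAT RSG 280 at 0.584, and results at RSG 280 are given below without mouse 2 where they change. All 10 adipocyte markers on the array were measured in IAT and all 7 hepatocyte markers in liver. The IAT samples also carried measurable signal for all 8 epithelial and all 7 skeletal muscle markers, and the liver samples for 9 of 10 adipocyte markers.

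In IAT, the collagen and protease genes moved in both directions at the lowest dose and mostly downwards at the highest. With RSG, 15 of the 63 genes were upregulated and 13 downregulated at 28 µmol/kg, where 46.9% of all probes were called (27.6% up, 19.3% down). At 84 µmol/kg the counts were 12 up and 24 down (65.7% of all probes called, 38.5% up, 27.1% down), and at 280 µmol/kg 12 up and 35 down (67% called, 37.1% up, 29.8% down). With the S compound, 16 were upregulated and 9 downregulated at 28 µmol/kg (47.6% called, 28.5% up, 19.1% down), 16 and 14 at 84 µmol/kg (55.7% called, 33.4% up, 22.3% down), and 13 and 35 at 280 µmol/kg (74.7% called, 42.7% up, 32% down). The downregulated share of the 63 genes at 280 µmol/kg was above that of all probes, and the upregulated share below it. The median log2 ratio of the 63 genes went from 0.05 and 0.06 at 28 µmol/kg of RSG and S to -0.33 and -0.42 at 280 µmol/kg. Without mouse 2, 31 of the 63 genes were downregulated at RSG 280 and 13 upregulated.

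Markers of several stromal cell types in IAT were also below the pool, some of them already at the lowest dose. The smooth muscle or pericyte list had a mean below the pool in all mice at 28 µmol/kg (-1.24 to -0.80 with RSG, -1.15 to -0.78 with S), as had the epithelial list (-3.56 to -0.67 and -3.83 to -1.34). The fibroblast list lay between -0.38 and 0.15 and between -0.43 and 0.08 there, and the endothelial list between -0.25 and 0.14 and between -0.01 and 0.28. The skeletal muscle list spread there from -4.09 to 0.38 and from -2.87 to 0.28, with medians of -1.03 and -1.21. The hepatocyte list lay between -1.68 and -0.25 with RSG 28 and between -1.28 and 0.99 with S 28. At 280 µmol/kg the fibroblast, endothelial and macrophage lists were also below the pool in all mice. Of all probes at that dose, 37.1% were up and 29.8% down with RSG, and 42.7% and 32% with S. Of 10 fibroblast markers measured, 7 were downregulated with RSG and 10 with S, and the mean over the list lay between -0.64 and -0.34 in the RSG mice and between -1.09 and -0.52 in the S mice. Of 8 smooth muscle or pericyte markers, 7 were downregulated with each compound (list mean -1.59 to -0.73 and -1.67 to -1.31), as were 5 and 6 of 7 endothelial markers (-0.45 to -0.26 and -0.66 to -0.23), while 1 was upregulated with each. Macrophage markers were downregulated in 7 of 9 cases with each compound (-0.86 to -0.21 and -0.78 to -0.10). The lymphocyte list lay between -0.18 and 0.66 at RSG 280 and between -0.37 and -0.21 at S 280. The neutrophil list lay between -1.30 and 0.69 and between -1.35 and 0.03. Epithelial markers were downregulated in 6 of 8 cases with each, with a list mean between -3.59 and -0.43 and between -3.84 and -0.92. Skeletal muscle markers were downregulated in 5 and 7 of 7 cases (-3.71 to 0.63 and -4.17 to -1.72), whereas the adipocyte list mean stayed between -0.17 and 0.21 in all 12 mice. At RSG 28 that mean had lain between -0.64 and 0.11. A mean near 0 does not show whether single adipocyte markers moved in opposite directions. In whole tissue, fewer cells of a type and less RNA per cell cannot be told apart, and the part of these markers in the collagen values was not tested.

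**Figure D1:**
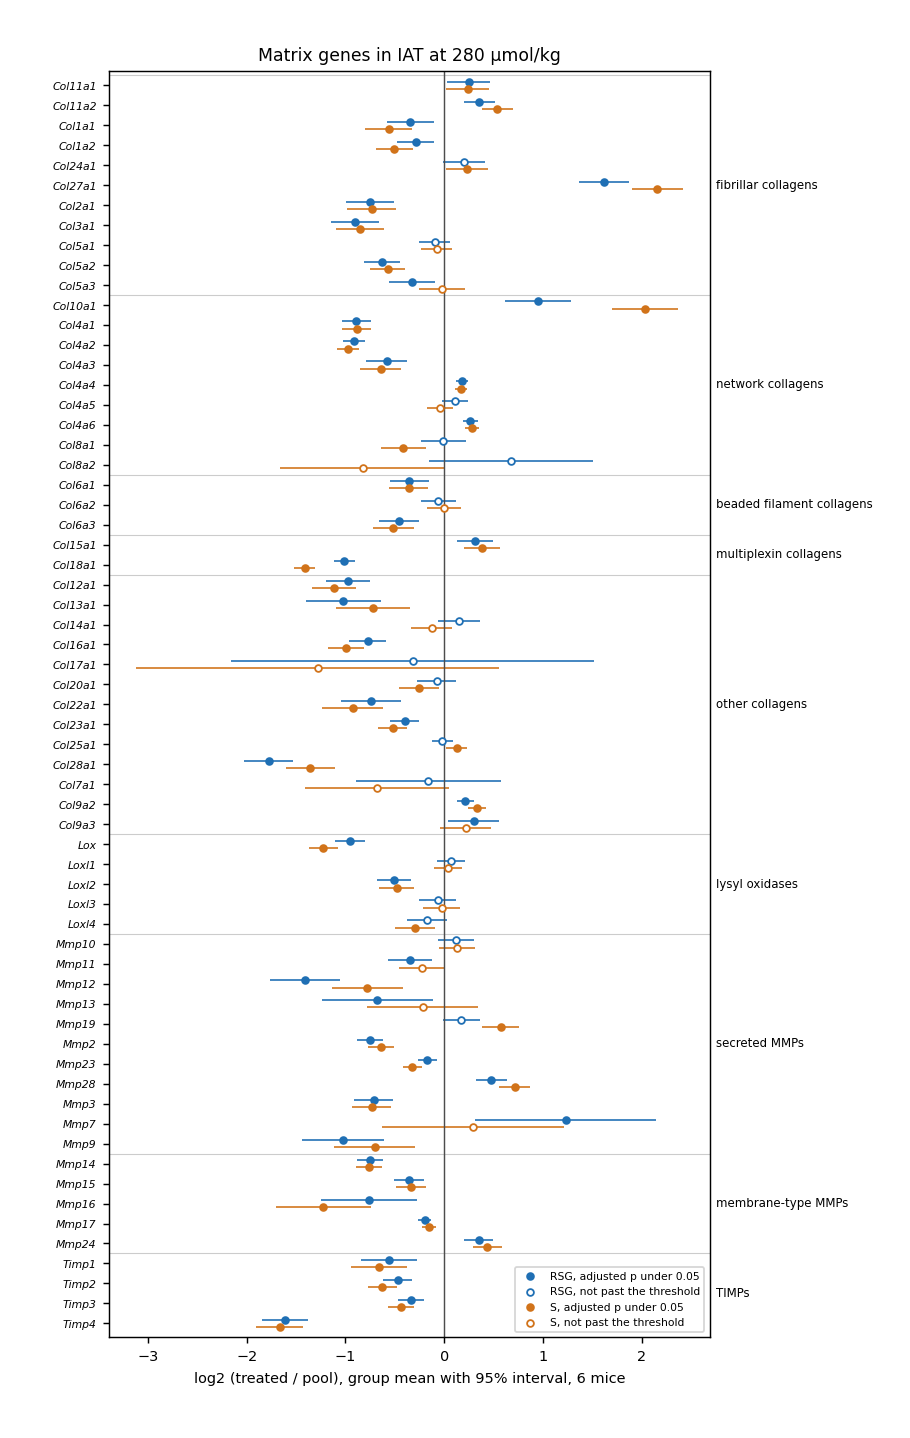
Mean log2 ratio to the pool (x axis) with its 95% interval at 280 µmol/kg for each of the 63 genes measured in IAT, grouped by class, with RSG in blue, S in orange and filled points where the adjusted p was under 0.05. Col27a1 lies farthest to the right (1.62 with RSG, 2.16 with S), Col28a1 farthest to the left with RSG (-1.78) and Timp4 with S (-1.67).

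Among the 11 fibrillar collagens in IAT, the type I and III chains read lower at 280 than at 28 µmol/kg on every probe measured. On their brightest probes these chains passed from above the pool to below it with S, but not on all other probes. With RSG, 5 of the 11 were upregulated and none downregulated at 28 µmol/kg (27.6% of all probes up, 19.3% down), and 3 upregulated and 6 downregulated at 280 µmol/kg (37.1% up, 29.8% down). With S, the counts went from 8 up and none down (28.5% of all probes up, 19.1% down) to 4 up and 5 down (42.7% up, 32% down). Col1a1 and Col1a2 encode the chains of type I collagen, the main fibre of connective tissue. Col1a1 at RSG 28 had a lowest, median and highest mouse at -0.08, 0.42 and 0.53 (mean 0.35 ± 0.12, adjusted p = 0.0145). At RSG 280 the Col1a1 values were -1.11, -0.15 and 0.04 (mean -0.34 ± 0.12, adjusted p = 0.0104). That call was lost without mouse 1 and without mouse 2, whose removal brought the mean to -0.19 (adjusted p = 0.127). The same held for Col1a2, with a mean of -0.29 ± 0.09 (adjusted p = 0.00659) that became -0.19 without mouse 2 (adjusted p = 0.0693). With S, all 6 mice lay below the pool at 280 µmol/kg, with Col1a1 at -0.90, -0.58 and -0.27 (mean -0.56 ± 0.12, adjusted p = 6.80e-05) and Col1a2 at -0.69, -0.52 and -0.37 (mean -0.51 ± 0.09, adjusted p = 1.13e-05). A second Col1a1 probe, farther upstream in the transcript (mm8 chr11:94754053), read 0.53 at RSG 28, 0.005 at RSG 280, 0.67 at S 28 and 0.11 at S 280, and another (chr11:94766828) read 0.26, -0.19, 0.34 and -0.27 in the same groups. All 3 probes read lower at 280 than at 28 µmol/kg, while the upstream one did not read below the pool at 280 µmol/kg. A second Col1a2 probe (chr6:4463773) read 0.75 at RSG 28, 0.21 at RSG 280, 0.79 at S 28 and 0.01 at S 280 (adjusted p = 0.963), so it too was lower at the high dose but not below the pool.

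Col3a1, the type III chain that forms fibres together with type I, was the most strongly lowered of the interstitial chains when each is read on its brightest probe. At RSG 280 its lowest, median and highest mouse stood at -1.90, -0.72 and -0.43 (mean -0.90 ± 0.12, adjusted p = 8.24e-08), 46.5% lower than the pool. At S 280 the values were -1.15, -0.85 and -0.58 (mean -0.85 ± 0.12, adjusted p = 1.80e-07), 44.5% lower. In each group all 6 mice were below the pool. At S 28, by contrast, the mean was 0.41 ± 0.12 (adjusted p = 0.00604), and at RSG 28 it was 0.05 ± 0.12 and did not pass the test. Another Col3a1 probe (mm8 chr1:45266098) read -0.18 at RSG 280 and -0.11 at S 280, after 0.51 and 0.65 at 28 µmol/kg, and was called in the opposite direction at RSG 84. Col5a2, a chain that sets the width of type I fibres, had means of -0.63 ± 0.09 (RSG, adjusted p = 2.70e-07) and -0.57 ± 0.09 (S, adjusted p = 9.28e-07), while the brightest probe of its partner Col5a1 was at -0.10 ± 0.08 and -0.08 ± 0.08 and did not pass. A second Col5a1 probe (chr2:27808732) read 0.25 (adjusted p = 0.053) and 0.50 (adjusted p = 2.15e-04). The brightest Col5a3 probe was at -0.33 ± 0.11 at RSG 280 (adjusted p = 0.0118) and at -0.03 at S 280, whereas a second one (chr9:20536024) read 0.14 at RSG 280 and 0.52 at S 280 (adjusted p = 2.37e-04), so no direction is given for either gene. The Col5a3 call at RSG 280 passed neither without mouse 3 nor without mouse 2 (-0.20, adjusted p = 0.116).

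Col27a1, a fibrillar collagen best known from cartilage, went the other way and rose with dose with both compounds. With RSG, its lowest, median and highest mouse stood at 0.12, 0.49 and 0.66 at 28 µmol/kg, at 0.69, 1.05 and 1.58 at 84 µmol/kg and at 0.56, 1.78 and 1.98 at 280 µmol/kg. With S, they stood at 0.05, 0.40 and 0.57, at 0.47, 0.75 and 1.24, and at 1.76, 2.14 and 2.48. All 36 mice were above the pool, and at 280 µmol/kg Col27a1 was 3.07-fold higher with RSG (adjusted p = 8.43e-13) and 4.46-fold higher with S (adjusted p = 5.23e-16). The value of 0.56 at RSG 280 belonged to mouse 2, and the mean without it was 1.83. Col11a2 and Col11a1, chains of the thin cartilage fibres, were higher by less. Col11a2 was at 0.36 ± 0.08 (adjusted p = 1.57e-04) and 0.54 ± 0.08 (adjusted p = 2.41e-07) at 280 µmol/kg of RSG and S. Col11a1 was at 0.25 ± 0.11 (adjusted p = 0.0425) and 0.24 ± 0.11 (adjusted p = 0.0453), calls that were lost with median centring and without single mice. Col2a1, the main cartilage collagen, had probes that disagreed: the brighter one (mm8 chr15:97804088-97804147) was at -0.75 at RSG 280 and the overlapping one (chr15:97804108-97804167) at 0.25, so no direction is given for the gene. The brighter probe was at -0.74 at S 280.

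The basement membrane chains Col4a1 and Col4a2, whose genes lie head to head on chromosome 8 with starts 21 bases apart in GRCm38.p6, fell together with dose. With RSG, the lowest, median and highest mouse for Col4a1 were at -0.60, -0.15 and 0.02 at 28 µmol/kg, at -0.66, -0.54 and -0.41 at 84 µmol/kg and at -1.39, -0.81 and -0.64 at 280 µmol/kg. With S, they were at -0.18, 0.02 and 0.30, at -0.46, -0.40 and -0.12, and at -0.98, -0.89 and -0.75. From 84 µmol/kg upwards all mice were below the pool, and at 280 µmol/kg Col4a1 was 46.1% lower with RSG (adjusted p = 2.03e-12) and 45.9% lower with S (adjusted p = 1.47e-12). Col4a2 had means of -0.92 ± 0.05 (adjusted p = 1.98e-15) and -0.98 ± 0.05 (adjusted p = 2.32e-16). The chains Col4a4 and Col4a6, which have a more restricted distribution among tissues, were slightly above the pool at 280 µmol/kg (0.18 ± 0.03 and 0.26 ± 0.04 with RSG, 0.17 ± 0.03 and 0.28 ± 0.04 with S). A second Col4a4 probe was at -0.78 and -0.82, however, and Col4a6 also had a probe called in the opposite direction at S 280. Col10a1, a network collagen of hypertrophic cartilage, was called above the pool in all groups, with a lowest, median and highest mouse of 0.43, 1.10 and 1.15 at RSG 280 and of 1.19, 2.01 and 2.81 at S 280. Its signal was dim, so no fold is given. It was well above background on 47 of 72 arrays in the treated channel and on 24 of 72 in the pool, and the pool was so on 10 of 12 arrays at RSG 280 and on 3 of 12 at S 280. With normexp background correction neither 28 µmol/kg group passed.

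**Figure D2:**
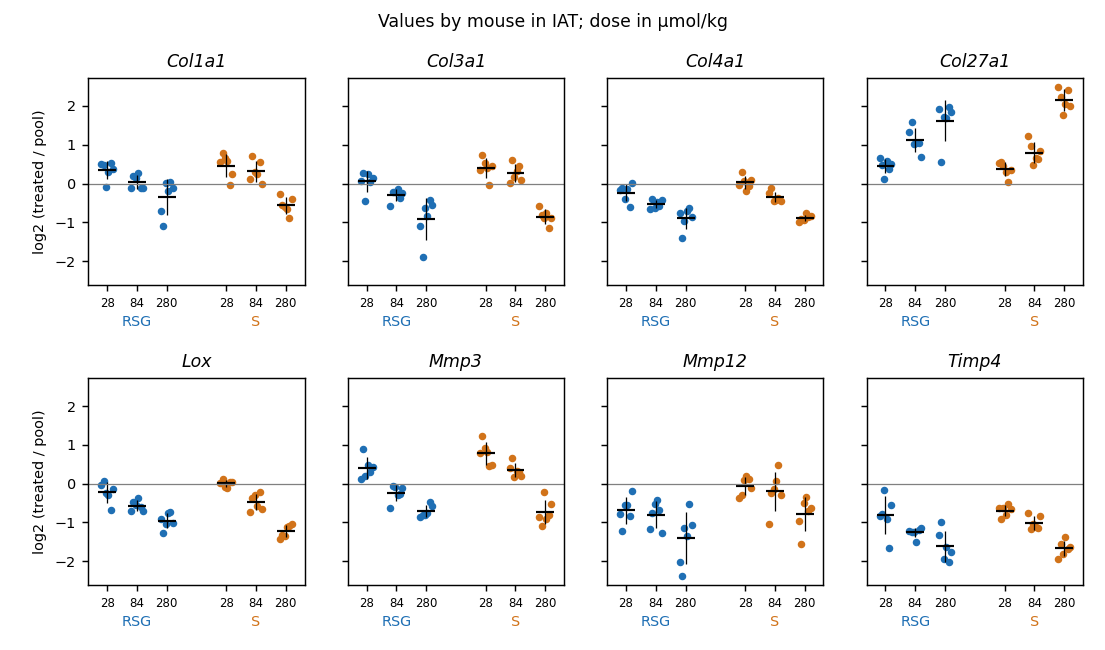
Log2 ratio to the pool (y axis) of every IAT mouse by compound and dose for 8 genes, each point being 1 mouse, the horizontal bar the mean and the vertical bar the SD of 6 mice. Col27a1 lies above 0 in all 36 mice, while Timp4 lies below 0 in all 36.

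Of the other collagens in IAT, the transmembrane, fibril-associated and endostatin-bearing chains were mostly below the pool, and Col15a1 was above it. Col18a1, the basement membrane collagen from which endostatin is cut, was among the most uniform values of all. Its lowest, median and highest mouse were at -1.19, -0.98 and -0.88 at RSG 280 (50.4% lower, adjusted p = 7.10e-17) and at -1.54, -1.42 and -1.23 at S 280 (62.4% lower, adjusted p = 1.01e-20). At 28 µmol/kg the means were -0.58 ± 0.05 and -0.55 ± 0.05, and all 36 mice were below the pool. Col15a1, the other member of that family, was at 0.31 ± 0.09 (adjusted p = 0.00279) and 0.38 ± 0.09 (adjusted p = 3.66e-04) at 280 µmol/kg and upregulated at every dose of both compounds. Col28a1, a von Willebrand factor domain collagen of basement membranes around nerve, was the lowest value of the 63 genes at RSG 280, with mice at -2.38, -1.63 and -1.36 (70.8% lower, adjusted p = 4.67e-14). At S 280 the mice were at -1.73, -1.29 and -1.003 (60.9% lower, adjusted p = 1.55e-11).

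Col12a1 and Col16a1, which sit on the surface of collagen fibres, were at -0.98 ± 0.11 (adjusted p = 2.70e-09) and -0.78 ± 0.09 (adjusted p = 7.35e-09) at RSG 280 and at -1.12 ± 0.11 (adjusted p = 9.99e-11) and -0.99 ± 0.09 (adjusted p = 2.35e-11) at S 280. Col13a1, a transmembrane collagen, was at -1.02 ± 0.19 (adjusted p = 1.49e-05) and -0.72 ± 0.19 (adjusted p = 8.69e-04). Col22a1, a collagen of tissue junctions that is strong at the muscle-tendon junction, was at -0.74 ± 0.15 and -0.93 ± 0.15, with a second probe called in the opposite direction at RSG 280. Col9a2, a cartilage chain, was at 0.21 ± 0.04 (adjusted p = 8.68e-05) and 0.33 ± 0.04 (adjusted p = 6.81e-08), and Col20a1 passed at S 280 only (-0.25 ± 0.10, adjusted p = 0.022, lost without mouse 2, mouse 5 or mouse 6 of that group). Col7a1, the anchoring fibril collagen of skin, spread from -1.66 to 1.96 over the 36 mice and passed in no group. In the beaded filament of type VI, Col6a1 and Col6a3 were downregulated at 280 µmol/kg (-0.35 ± 0.10 and -0.46 ± 0.10 with RSG, -0.36 ± 0.10 and -0.52 ± 0.10 with S), and the brightest Col6a2 probe was at -0.06 ± 0.09 and -0.00 ± 0.09. A second Col6a2 probe (chr10:76045538) read 0.51 at RSG 280 (adjusted p = 5.34e-07) and 0.51 at S 280 (adjusted p = 4.31e-07). A second Col6a3 probe read 0.15 and 0.14 at 280 µmol/kg, after 0.47 and 0.60 at 28 µmol/kg. The 13 other genes measured in IAT (Col14a1, Col17a1, Col23a1, Col24a1, Col25a1, Col4a3, Col4a5, Col8a1, Col8a2, Col9a3, Mmp10, Mmp17 and Mmp23) had means from -0.58 (Col4a3) to 0.67 (Col8a2) at RSG 280 and from -1.28 (Col17a1) to 0.23 (Col24a1) at S 280, where neither Col8a2 nor Col17a1 passed with either compound.

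Of the 5 lysyl oxidases, Lox itself fell with dose and the others moved by less. Lox, the main crosslinking enzyme of the family, had its lowest, median and highest mouse at -0.68, -0.19 and 0.07 at RSG 28, at -0.71, -0.57 and -0.38 at RSG 84 and at -1.27, -0.97 and -0.72 at RSG 280. With S it was at -0.10, 0.02 and 0.13, at -0.74, -0.48 and -0.23, and at -1.43, -1.21 and -1.04. All mice at 84 and 280 µmol/kg were below the pool, and at 280 µmol/kg Lox was 48.4% lower with RSG (adjusted p = 9.34e-13) and 57.2% lower with S (adjusted p = 1.57e-15). Loxl2 was downregulated at 280 µmol/kg (-0.51 ± 0.09 with RSG, -0.48 ± 0.09 with S), but a second probe read 0.33 in each group. Loxl4 passed at S 280 only (-0.30 ± 0.10, adjusted p = 0.00829), not without mouse 5 of that group (adjusted p = 0.0636), and Loxl1 (0.07 ± 0.07 and 0.04 ± 0.07) and Loxl3 (-0.07 ± 0.09 and -0.03 ± 0.09) did not pass. Loxl3 had been upregulated at 28 µmol/kg of RSG (0.26 ± 0.09, adjusted p = 0.0197) and of S (0.33 ± 0.09, adjusted p = 0.00384).

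Among the proteases in IAT, the gelatinases Mmp2 and Mmp9 and the Mmp2 activator Mmp14 were below the pool at the highest dose, and Mmp28 and Mmp24 above it. Of the 11 metalloproteinases grouped here as secreted, Mmp23 included, 7 were downregulated and 2 upregulated at RSG 280 (29.8% of all probes down, 37.1% up), and 5 and 2 at S 280 (32% down, 42.7% up). Mmp2, a gelatinase made by stromal cells, had its lowest, median and highest mouse at -0.91, -0.74 and -0.63 at RSG 280 (mean -0.75 ± 0.07, adjusted p = 1.27e-11) and at -0.78, -0.71 and -0.45 at S 280 (mean -0.64 ± 0.07, adjusted p = 2.39e-10). Mmp14, the membrane protease that activates pro-Mmp2, was at -1.02, -0.74 and -0.48 (mean -0.75 ± 0.07, adjusted p = 1.26e-11) and at -0.97, -0.79 and -0.54 (mean -0.76 ± 0.07, adjusted p = 5.54e-12). At 28 µmol/kg the means of these genes lay between -0.07 and 0.07 and none passed. Mmp9, the other gelatinase, was at -1.03 ± 0.20 (adjusted p = 4.64e-05) and -0.70 ± 0.20 (adjusted p = 0.00243).

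Mmp3, or stromelysin, changed sign between the lowest and the highest dose. Its lowest, median and highest mouse were at 0.11, 0.36 and 0.89 at RSG 28, at -0.64, -0.19 and -0.06 at RSG 84 and at -0.87, -0.78 and -0.48 at RSG 280. With S they were at 0.45, 0.81 and 1.22, at 0.16, 0.32 and 0.66, and at -1.08, -0.84 and -0.22. All 6 mice were above the pool at 28 µmol/kg of each compound and all 6 below it at 280 µmol/kg, and each of the 6 group means passed the test. Mmp12, the macrophage elastase, was lower at every RSG dose, with mice at -2.37, -1.24 and -0.54 at RSG 280 (62.4% lower, adjusted p = 2.61e-08), and at S 280 with mice at -1.55, -0.67 and -0.36 (41.8% lower, adjusted p = 2.06e-04). Mmp13, a collagenase, spread from -1.99 to 0.09 at RSG 280 (mean -0.68 ± 0.28, adjusted p = 0.0301, lost without mouse 1 or mouse 2) and from -1.76 to 0.39 at S 280, where it did not pass. These 3 genes carry the AP-1 element in the windows printed above, and so does Mmp7, a small epithelial protease, whose value at RSG 280 rested on 2 mice at 4.15 and 4.02 while the other 4 lay between -0.46 and 0.02 (mean 1.23 ± 0.45, adjusted p = 0.0175, lost without either of these mice).

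Mmp28 was upregulated at 280 µmol/kg of RSG (0.48 ± 0.08, adjusted p = 3.16e-06) and S (0.71 ± 0.08, adjusted p = 1.33e-09), as was the membrane-type Mmp24 (0.35 ± 0.07 and 0.44 ± 0.07). Mmp19 passed at S 280 (0.57 ± 0.09, adjusted p = 1.64e-06) and not at RSG 280 (0.17 ± 0.09), and its difference between the compounds was -0.40 with a 95% interval from -0.67 to -0.14 (adjusted p = 0.0948). Mmp15, a membrane-type protease, was downregulated in all 6 groups (means from -0.36 to -0.20). Mmp11 was at -0.35 ± 0.11 (adjusted p = 0.00673) at RSG 280. Mmp16 was not well above background on any of the 12 arrays of S 280, where it was at least 1.24-fold lower than the pool (adjusted p = 3.00e-05), and it was at -0.76 ± 0.24 at RSG 280.

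All 4 inhibitors were downregulated in IAT at 280 µmol/kg of both compounds (29.8% of all probes down with RSG, 32% with S), and Timp4 at every dose. Timp4, the inhibitor that is abundant in fat and heart, had its lowest, median and highest mouse at -1.65, -0.81 and -0.16 at RSG 28, at -1.50, -1.23 and -1.15 at RSG 84 and at -2.02, -1.70 and -0.99 at RSG 280. With S they were at -0.90, -0.64 and -0.53, at -1.16, -1.08 and -0.75, and at -1.93, -1.66 and -1.37. All 36 mice were below the pool, and at 280 µmol/kg Timp4 was 67.3% lower with RSG (adjusted p = 1.21e-13) and 68.5% lower with S (adjusted p = 3.42e-14). Timp1, the inducible inhibitor, was at -0.56 ± 0.14 and -0.66 ± 0.14, Timp2, which also takes part in Mmp2 activation, at -0.47 ± 0.07 and -0.63 ± 0.07, and Timp3, which is bound to matrix, at -0.34 ± 0.06 and -0.44 ± 0.06. At RSG 28 Timp2 had been above the pool (0.19 ± 0.07, adjusted p = 0.0342).

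Tested directly, 24 of the 63 IAT genes were lower and 4 higher at 280 than at 28 µmol/kg of RSG, where 25.4% of all probes were called (13.7% higher, 11.7% lower), and 30 were lower and 7 higher with S (43.5% called, 26.5% higher, 17% lower). For RSG the largest falls were those of Mmp3 (-1.12, 95% interval -1.40 to -0.83, adjusted p = 4.33e-07), Col28a1 (-1.04), Col3a1 (-0.96), Col13a1 (-0.90) and the brighter Col2a1 probe (-0.89). The 4 rises were those of Col27a1 (1.16, 95% interval 0.80 to 1.52, adjusted p = 8.50e-06), Mmp28 (0.31), Col4a6 (0.15) and Col4a4 (0.13), and the last 3 of these were lost when single mice were left out. For S the largest falls were those of Mmp3 (-1.52, 95% interval -1.80 to -1.23, adjusted p = 3.88e-10), Col3a1 (-1.26), Col28a1 (-1.25), Lox (-1.23) and the Col2a1 probe (-1.16), and the largest rises those of Col27a1 (1.78, 95% interval 1.42 to 2.14), Col10a1 (1.40), Col11a2 (0.62), Mmp28 (0.56) and Col9a2 (0.27). No IAT mouse at 280 µmol/kg was scanned on the same day as one at 28 µmol/kg of the same compound, and with scan day as a block only 8 of the 28 RSG differences passed.

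Between the compounds at equal doses, few of these genes passed the test in IAT. At 28 µmol/kg none of 63 passed by limma (0.0065% of all probes called), and 11 had an unadjusted p under 0.05. At 84 µmol/kg 2 were lower with RSG (2.15% called, 1.38% higher and 0.77% lower): Col28a1 by -0.83 (95% interval -1.18 to -0.48, adjusted p = 0.00726) and Mmp3 by -0.58 (-0.86 to -0.30, adjusted p = 0.0195, lost without mouse 1 of RSG 84 or mouse 2 of S 84). At 280 µmol/kg (1.58% called, 0.409% higher and 1.17% lower) Col18a1 was higher with RSG than with S by 0.40 (0.25 to 0.55, adjusted p = 0.0114), and Col10a1 lower by -1.08 (-1.55 to -0.61, adjusted p = 0.0205). The Col10a1 difference was -0.03 with normexp background correction, and it did not pass without mouse 2 of RSG 280 or mouse 4 or 5 of S 280. Neither of these differences at 280 µmol/kg passed when only the groups compared were fitted. Col27a1 differed by -0.54 (-0.90 to -0.18, adjusted p = 0.0966), Lox by 0.27 (0.05 to 0.48, adjusted p = 0.153) and Timp4 by 0.05 (-0.28 to 0.38). At 84 and 280 µmol/kg, 16 and 11 of the 63 genes had an unadjusted limma p under 0.05. The median 95% interval, which is not adjusted for the number of probes, reached 0.28 to either side. Larger differences, such as that of Col27a1, also failed the adjusted test, so differences above 0.28 can have been missed too. RSG and S mice of the same dose shared no scan day in IAT, so that compound and scan day cannot be told apart there.

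Genes that process or accompany collagen were also mostly below the pool in IAT at the highest dose. Of 71 other matrix genes measured (prolyl and lysyl hydroxylases, procollagen proteases, proteoglycans, laminins, thrombospondins and the like), 12 were upregulated and 21 downregulated at RSG 28 and 3 and 53 at RSG 280. With S the counts were 20 and 13 at 28 µmol/kg and 5 and 55 at 280 µmol/kg. Of all probes, 27.6% were up and 19.3% down at RSG 28, and 37.1% and 29.8% at RSG 280. With S 28.5% were up and 19.1% down at 28 µmol/kg, and 42.7% and 32% at 280 µmol/kg. Mrc2, the receptor that takes up cleaved collagen, was at -1.53 and -1.79 at 280 µmol/kg of RSG and S, Thbs2 at -1.50 and -2.02, and Dcn and Lum, proteoglycans that coat collagen fibres, at -1.04 and -1.33 and at -0.87 and -1.08. Sparc, a collagen-binding protein, was at -0.82 and -0.94. Adam12, a protease associated with adipogenesis, was at 1.85 and 2.19, and Fbn2, a microfibril protein, at 0.86 and 0.82.

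In liver, the fibrillar chains Col1a1, Col1a2, Col3a1 and Col5a2 and the basement membrane chains Col4a1 and Col4a2 were above the pool already at the lowest dose. Other fibrillar chains, such as Col27a1 and Col11a2, were below it. With RSG, 21 of 47 genes were upregulated and 14 downregulated at 28 µmol/kg (59.4% of all probes called, 25.5% up, 33.8% down), 21 and 14 at 84 µmol/kg (57.7% called, 24.6% up, 33.2% down), and 19 and 12 at 280 µmol/kg (51.9% called, 22.1% up, 29.8% down). With S, the counts were 21 and 9 at 28 µmol/kg (52.2% called, 23.7% up, 28.5% down), 16 and 13 at 84 µmol/kg (55.3% called, 24.5% up, 30.8% down), and 18 and 17 at 280 µmol/kg (66.9% called, 28.8% up, 38.1% down). The upregulated share of the 47 genes was above that of all probes in each group. Mouse 2 of RSG 280 was at the low end for most collagens. Without it 22 genes were upregulated and 13 downregulated, with Col11a1, Col12a1, Col14a1, Loxl1 and Mmp2 passing in addition and Col4a4 no longer.

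Some marker lists in liver moved in other ways than in IAT, while skeletal muscle markers were mostly downregulated in both tissues. Of all liver probes at 280 µmol/kg, 22.1% were up and 29.8% down with RSG, and 28.8% and 38.1% with S. Adipocyte markers were upregulated in 6 of 9 cases at RSG 280 and 5 of 9 at S 280, with a list mean between 1.35 and 2.11 and between 1.22 and 1.77. Skeletal muscle markers were downregulated in 6 of 6 cases with each compound (-1.68 to -0.19 and -1.85 to -1.27). Their list mean had already lain between -1.89 and -1.64 at RSG 28 and between -1.82 and 0.42 at S 28. Of 12 fibroblast or stellate cell markers, 2 were upregulated with each compound and 3 (RSG) and 6 (S) downregulated, and their list mean lay between -0.28 and 0.22 and between -0.31 and 0.04. Of 7 endothelial markers, 4 and 3 were upregulated (-0.06 to 0.39 and -0.02 to 0.39). At 280 µmol/kg the epithelial list mean lay between -0.36 and 0.26 with RSG and between 0.25 and 0.58 with S. For hepatocyte markers it lay between -0.20 and 0.10 and between -0.56 and -0.05. The macrophage mean spread from -0.20 to 0.64 and from -0.44 to 0.32. That of smooth muscle or pericyte markers spread from -0.18 to 0.25 and from -0.14 to 0.17. The part of these markers in the collagen values was not tested.

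**Figure D3:**
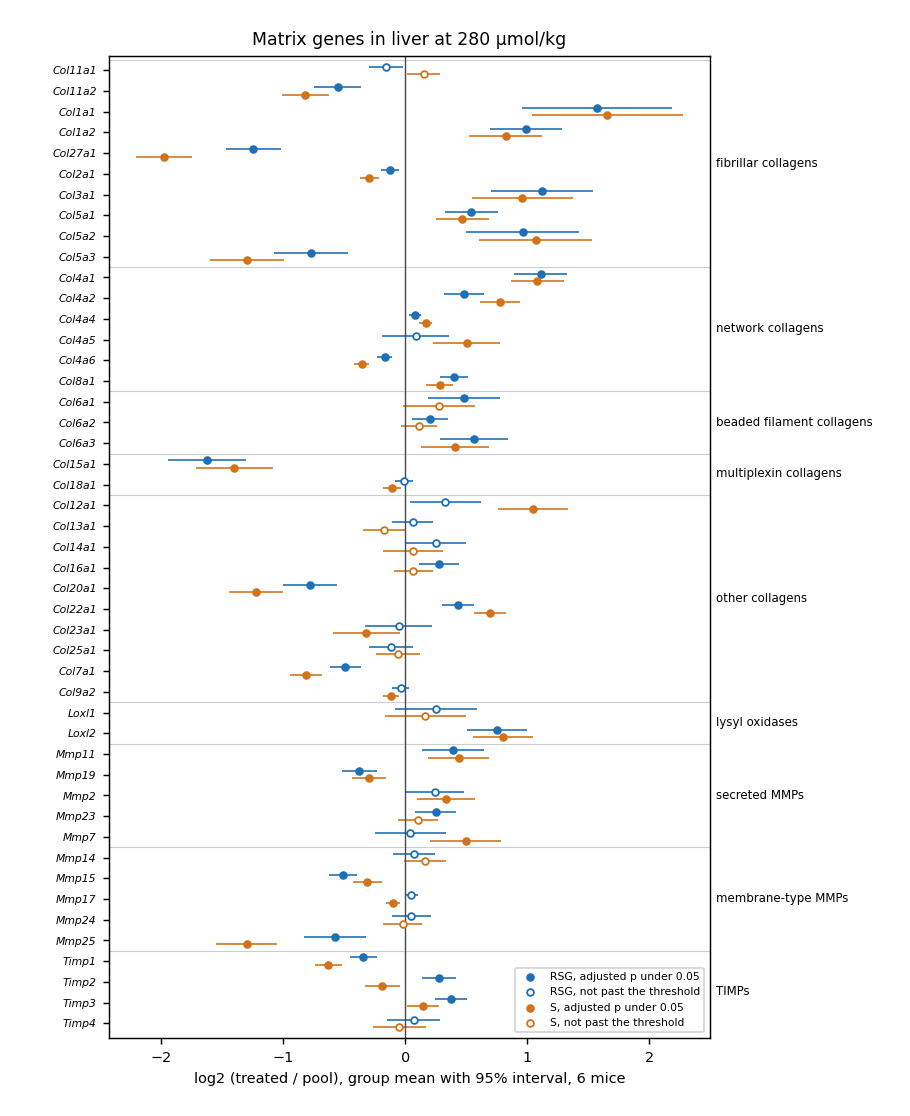
Mean log2 ratio to the pool (x axis) with its 95% interval at 280 µmol/kg for each of the 47 genes measured in liver, grouped by class, with RSG in blue, S in orange and filled points where the adjusted p was under 0.05. Col1a1 lies farthest to the right (1.57 with RSG, 1.65 with S), and Col27a1, Col15a1 and Mmp25 lie at the left with S.

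Of the 10 fibrillar collagens in liver, 5 were upregulated in each of the 6 groups, where 22.1% (RSG 280) to 28.8% (S 280) of all probes were up. The type I chain Col1a1 was the highest. Its lowest, median and highest mouse were at 1.24, 2.06 and 2.34 at RSG 28, at 1.34, 1.76 and 2.22 at RSG 84 and at -1.37, 2.02 and 2.80 at RSG 280. With S they were at 1.25, 2.04 and 2.93, at 0.62, 1.52 and 1.99, and at 1.43, 1.49 and 2.13. All 36 mice but mouse 2 of RSG 280 were above the pool, and the RSG 280 mean of 1.57 ± 0.30 (2.97-fold, adjusted p = 6.05e-05) was 2.16 without it, while S 280 was at 3.15-fold (adjusted p = 1.51e-05). The SD over the 6 mice was 1.56 at RSG 280 and 0.296 at S 280. Col3a1 was 2.17-fold higher at RSG 280 (mice at -0.79, 1.35 and 2.07, adjusted p = 2.84e-05) and 1.94-fold at S 280 (0.72, 0.88 and 1.33, adjusted p = 1.20e-04). Col1a2 was at 0.99 ± 0.15 (adjusted p = 1.12e-06) and 0.82 ± 0.15 (adjusted p = 9.63e-06), and Col5a2 at 0.96 ± 0.23 (adjusted p = 6.62e-04) and 1.07 ± 0.23 (adjusted p = 1.12e-04). Col5a1 was at 0.54 ± 0.11 and 0.47 ± 0.11, but a second probe was called lower (-0.31 and -0.67). At RSG 28 the means of Col1a1, Col1a2, Col3a1 and Col5a2 were 1.92, 1.15, 1.28 and 1.19, and none of these genes passed the test of 280 against 28 µmol/kg.

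Other fibrillar chains were below the pool in liver. Col27a1, which rose in IAT, had its lowest, median and highest mouse at -1.48, -1.31 and -0.74 at RSG 280 (57.8% lower, adjusted p = 6.48e-11) and at -2.65, -1.92 and -1.57 at S 280 (74.6% lower, adjusted p = 2.34e-16). At 28 µmol/kg the means were -1.36 ± 0.11 and -1.23 ± 0.11, and all 36 mice were below the pool. Col5a3 was at 0.02 ± 0.15 and -0.00 ± 0.15 at 28 µmol/kg of RSG and S, and at -0.77 ± 0.15 (adjusted p = 5.76e-05) and -1.30 ± 0.15 (adjusted p = 3.13e-09) at 280 µmol/kg. Col11a2 was at -0.56 ± 0.10 (adjusted p = 1.24e-05) and -0.82 ± 0.10 (adjusted p = 4.59e-09), with a second probe at -0.13 and -0.22. The treated channel of the Col11a2 probe used was well above background on 10 of 12 arrays at RSG 280 and on 6 of 12 at S 280. Col11a1 was at -0.16 ± 0.07 and 0.15 ± 0.07 and passed in neither group. The brighter Col2a1 probe in liver was slightly lower (-0.13 ± 0.04 and -0.29 ± 0.04), while the overlapping probe was at 1.04 at RSG 280, so no direction is given for that gene.

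The basement membrane chain Col4a1 was upregulated at all doses in liver. With RSG, the lowest, median and highest mouse were at 0.92, 1.13 and 1.43, at 0.97, 1.12 and 1.27, and at 0.07, 1.28 and 1.66 from the lowest to the highest dose. With S they were at 0.66, 0.86 and 1.02, at 0.59, 0.94 and 1.09, and at 0.97, 1.08 and 1.24. All 36 mice were above the pool, with 2.16-fold at RSG 280 (adjusted p = 2.41e-10) and 2.11-fold at S 280 (adjusted p = 1.08e-10). Col4a2 was raised by less, at 0.48 ± 0.08 (adjusted p = 8.48e-06) and 0.78 ± 0.08 (adjusted p = 3.40e-10). Col4a4 was slightly higher (0.08 ± 0.03 and 0.17 ± 0.03) and Col4a6 slightly lower (-0.17 ± 0.03 and -0.36 ± 0.03). In type VI collagen, Col6a3 was upregulated in all 6 groups (means from 0.40 to 0.76), Col6a1 at RSG 84 (0.44 ± 0.14), RSG 280 (0.48 ± 0.14) and S 28 (0.42 ± 0.14), and Col6a2 in the same 3 groups (0.17 ± 0.07, 0.20 ± 0.07 and 0.18 ± 0.07).

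Col15a1 and Col20a1 were lower in liver. Col15a1, a collagen that links basement membranes to the underlying matrix, had mice at -2.71, -1.42 and -1.35 at RSG 280 (67.6% lower, adjusted p = 2.36e-10) and at -2.33, -1.40 and -0.70 at S 280 (62.2% lower, adjusted p = 1.50e-09). At S 28 its mean was -0.24 ± 0.16 and did not pass. Col20a1 was at -0.78 ± 0.11 (adjusted p = 3.71e-07) and -1.23 ± 0.11 (adjusted p = 1.09e-11), and Col7a1 at -0.49 ± 0.06 (adjusted p = 9.61e-08) and -0.81 ± 0.06 (adjusted p = 5.12e-13). In the treated channel Col20a1 was well above background on 8 of 12 arrays at RSG 280 and on 4 of 12 at S 280. For Col15a1 these counts were 7 and 9 of 12. The size of the falls of Col15a1 and Col20a1 is therefore limited by signal. Col18a1, an abundant collagen of hepatocytes, hardly moved (-0.01 ± 0.04 at RSG 280, -0.11 ± 0.04 at S 280). Col12a1, a collagen on the surface of fibres, was at 1.04 ± 0.14 at S 280 (adjusted p = 9.18e-08) with all 6 mice above the pool, and at 0.33 ± 0.14 at RSG 280 (adjusted p = 0.0518) on the probe used. A second probe (chr9:79385147) ran the other way, with 0.33 at S 280 (adjusted p = 0.151) and 0.63 at RSG 280 (adjusted p = 0.01). The probe used was above background on 3 of 12 arrays in the treated channel and on 2 in the pool at RSG 280, and on 2 and none at RSG 84, so no fold is given there. Col22a1 was at 0.43 ± 0.06 and 0.69 ± 0.06, with a second probe at -0.10 and -0.38, and Col16a1 at 0.28 ± 0.08 (adjusted p = 0.00402) and 0.07 ± 0.08. Col13a1 (0.06 ± 0.08 and -0.18 ± 0.08) and Col9a2 (-0.04 ± 0.03 and -0.12 ± 0.03) were close to the pool. The 7 other genes measured in liver (Col14a1, Col23a1, Col25a1, Col4a5, Col8a1, Mmp17 and Mmp23) had means from -0.12 (Col25a1) to 0.40 (Col8a1) at RSG 280 and from -0.32 (Col23a1) to 0.50 (Col4a5) at S 280.

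**Figure D4:**
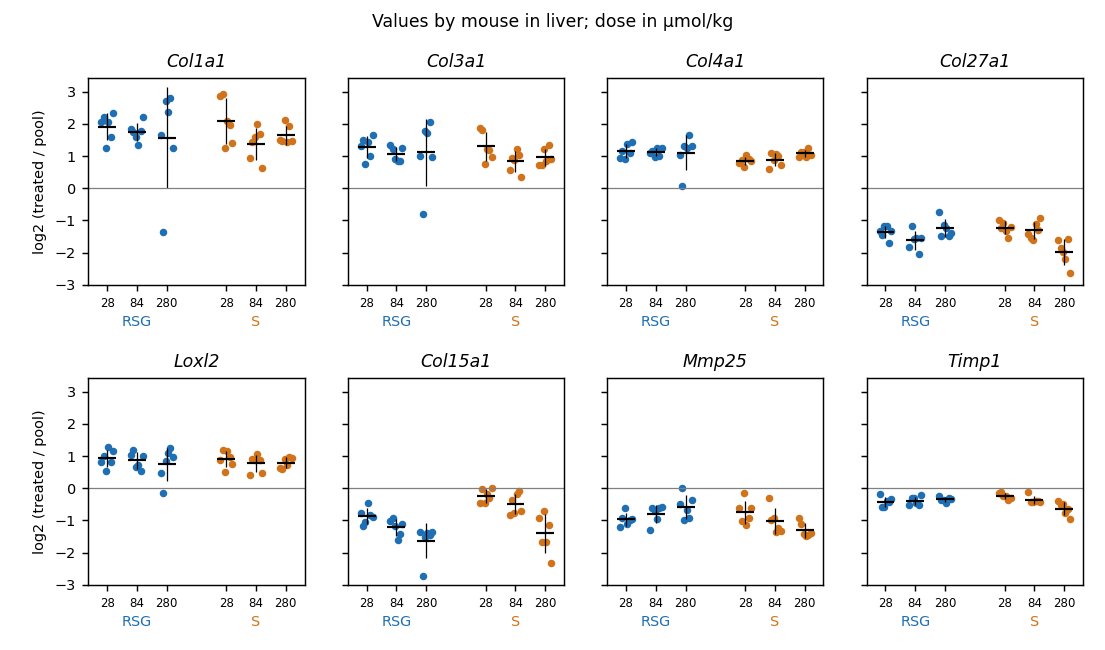
Log2 ratio to the pool (y axis) of every liver mouse by compound and dose for 8 genes, each point being 1 mouse, the horizontal bar the mean and the vertical bar the SD of 6 mice. The single low point of Col1a1 at RSG 280 is mouse 2 at -1.37, and Col27a1 lies below 0 in all 36 mice.

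Only 2 lysyl oxidases were measured in liver, and Loxl2 was the more uniform. Loxl2, which crosslinks type IV collagen among others, had its lowest, median and highest mouse at -0.15, 0.92 and 1.25 at RSG 280 (1.69-fold, adjusted p = 4.46e-06) and at 0.61, 0.82 and 0.98 at S 280 (1.74-fold, adjusted p = 6.90e-07). At 28 µmol/kg the means were 0.94 ± 0.12 and 0.91 ± 0.12. Loxl1, which acts on elastin, passed at RSG 28 (0.70 ± 0.16), RSG 84 (0.54 ± 0.16) and S 28 (0.64 ± 0.16) and not at 280 µmol/kg (0.25 ± 0.16 and 0.16 ± 0.16).

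Among the proteases in liver, Mmp25 and Mmp15 were below the pool. Mmp25, a membrane-anchored protease known from leukocytes, was lowest, with mice at -0.99, -0.59 and 0.00 at RSG 280 (32.9% lower, adjusted p = 2.50e-04) and at -1.48, -1.41 and -0.92 at S 280 (59.4% lower, adjusted p = 6.10e-11). Mmp15, a membrane-type protease expressed in liver, was at -0.51 ± 0.06 (adjusted p = 4.92e-09) and -0.31 ± 0.06 (adjusted p = 1.36e-05), and Mmp19 at -0.38 ± 0.07 and -0.30 ± 0.07. Mmp14 passed in no group (means from -0.11 to 0.16), and Mmp2 passed at RSG 28 (0.33 ± 0.12), S 28 (0.29 ± 0.12) and S 280 (0.33 ± 0.12, lost without mouse 5 or mouse 6 of that group). Mmp11 was upregulated at 280 µmol/kg of each compound (0.39 ± 0.12, adjusted p = 0.00926, and 0.44 ± 0.12, adjusted p = 0.00261), Mmp7 at S 280 only (0.49 ± 0.14, adjusted p = 0.00287) and Mmp24 at RSG 28 only (0.32 ± 0.08, adjusted p = 8.37e-04).

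The inhibitors split in liver. Timp1 was downregulated in all 6 groups, with mice at -0.45, -0.33 and -0.25 at RSG 280 (21.2% lower, adjusted p = 4.76e-06) and at -0.97, -0.59 and -0.39 at S 280 (35.4% lower, adjusted p = 9.25e-12). Timp3 was upregulated in all 6 groups (means from 0.15 to 0.45), a call that at S 280 was lost without mouse 1, mouse 3 or mouse 5. Timp2 was upregulated at all RSG doses (0.27 ± 0.07 at 280 µmol/kg, adjusted p = 0.0012) and at S 28 (0.33 ± 0.07), and downregulated at S 280 (-0.19 ± 0.07, adjusted p = 0.0169, lost without mouse 5 or mouse 6 of that group). Timp4, the most strongly lowered inhibitor in IAT, stayed between -0.20 and 0.07 in the liver group means and passed in none.

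Between doses in liver, limma called no gene for RSG (280 against 28 µmol/kg, 0.0119% of all probes called, 6 of 47 genes with an unadjusted p under 0.05) and 15 for S (29.5% called, 13% higher, 16.5% lower). With S, 11 were lower at the high dose, led by Col5a3 (-1.30, 95% interval -1.73 to -0.87, adjusted p = 1.46e-05), Col15a1 (-1.16, -1.61 to -0.72), Col27a1 (-0.75, -1.07 to -0.43), Mmp25 (-0.56, -0.92 to -0.20) and Timp2 (-0.52, -0.71 to -0.32). The 4 higher ones were Mmp7 (0.54), Col22a1 (0.36), Col4a2 (0.31) and Col4a4 (0.17). No S mouse at 280 µmol/kg shared a scan day with one at 28 µmol/kg. With scan day as a block 5 of the 15 differences passed, and the cause of that change was not tested.

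Between the compounds in liver, no gene was called by limma at 28 µmol/kg (0.915% of all probes called, 10 of 47 genes with an unadjusted p under 0.05) or at 84 µmol/kg (1.86% called, 0.681% higher and 1.18% lower, 3 genes). At 280 µmol/kg 9 were higher with RSG and 4 higher with S, where 28.6% of all probes were called (14.3% in each direction). Col27a1 (0.73, 95% interval 0.41 to 1.05, adjusted p = 6.65e-04), Mmp25 (0.73, 0.37 to 1.08, adjusted p = 0.00201), Timp2 (0.46, 0.26 to 0.66, adjusted p = 4.73e-04), Col20a1 (0.44, 0.13 to 0.76) and Col7a1 (0.32, 0.14 to 0.50) were the largest of the former, and Timp1 differed by 0.29 (0.13 to 0.45). Those called higher with S were Col12a1 (-0.72, -1.12 to -0.31, adjusted p = 0.00678), Col11a1 (-0.31, -0.50 to -0.11), Col4a2 (-0.30, -0.53 to -0.07) and Col22a1 (-0.26, -0.44 to -0.08). For Col12a1 and Col22a1 the second probe read higher with RSG than with S, as the levels above show, so no direction between the compounds is given for either gene. The raised type I, III and IV chains did not pass: Col1a1 differed by -0.08 (-0.96 to 0.79), Col3a1 by 0.16 (-0.43 to 0.75) and Col4a1 by 0.03 (-0.28 to 0.34). On the single scan day that held mice of both groups (2 against 2), Col27a1 differed by 0.67 and Col4a2 by -0.26, whereas Col20a1 differed by -0.04. The calls for Col11a1, Col20a1, Col22a1 and Col4a2 were lost when single mice were left out. The Col20a1 difference is also limited by the dim treated signal given above. Without mouse 2 of RSG 280, 14 genes were higher with RSG and 3 higher with S, and with scan day as a block 4 of the 13 differences passed.

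The same matrix genes as in IAT were counted in liver. Of 62 measured, 33 were upregulated and 12 downregulated at RSG 28 (25.5% of all probes up, 33.8% down) and 28 and 14 at RSG 280 (22.1% up, 29.8% down). With S the counts were 31 and 11 at 28 µmol/kg (23.7% up, 28.5% down) and 22 and 21 at 280 µmol/kg (28.8% up, 38.1% down). Postn, a matricellular protein, was at 1.32 and 1.08 at 280 µmol/kg of RSG and S, the basement membrane protein Nid1 at 1.28 and 1.32, and Sparc at 0.65 and 0.71. Fn1, the plasma and tissue fibronectin, was at -0.63 and -1.04, and the procollagen protease Bmp1 at -0.68 and -0.67.

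Technical repeats of the 28 µmol/kg livers showed how much of the spread came from the arrays. For the same 47 genes, the median SD between mice was 0.214 for RSG and 0.187 for S, against 0.0990 and 0.0891 between repeats of the same RNA, and the SD between mice was the larger in 40 and 38 of the 47 genes.

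Set side by side at 280 µmol/kg, the same genes moved apart in the tissues. Of the 46 genes measured in both, compared on a probe shared by the tissues, 26 were lower in IAT than in liver relative to each tissue's pool and 12 higher with RSG (61.5% of all probes called, 39.2% higher and 22.3% lower in IAT), and 25 lower and 9 higher with S (73.6% called, 47.4% and 26.2%). The median difference over all probes was 0.11 with RSG and 0.16 with S. With each array centred on its median, 26 were lower and 10 higher with RSG, and 28 and 9 with S. On the shared probes Col1a1 (-1.91 with RSG, adjusted p = 1.11e-06, and -2.22 with S, adjusted p = 2.36e-08), Col3a1 (-2.02 and -1.81) and Col4a1 (-2.001 and -1.97) were raised in liver and lowered in IAT. Col27a1 was the reverse (2.86, adjusted p = 1.98e-22, and 4.13, adjusted p = 1.55e-30), as were Col15a1 (1.94 and 1.78) and Col11a2 (0.91 and 1.36). The fall below the pool in IAT was not seen on all probes of Col1a1 and Col3a1. At 280 µmol/kg of RSG and S, the upstream Col1a1 probe read 0.005 and 0.11 there. A second Col3a1 probe read -0.18 and -0.11 and a dimmer one -0.10 and 0.13, and none of these values passed the limma test. The Col1a1 call in IAT at RSG 280 was also lost without mouse 2. Timp4 (-1.68 with RSG) was lowered in IAT and near the pool in liver, and Col4a2 differed by -1.75 with S. Liver and IAT were hybridised against different pools, and the labels do not tie a liver sample to the IAT sample of the same mouse.

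**Figure D5:**
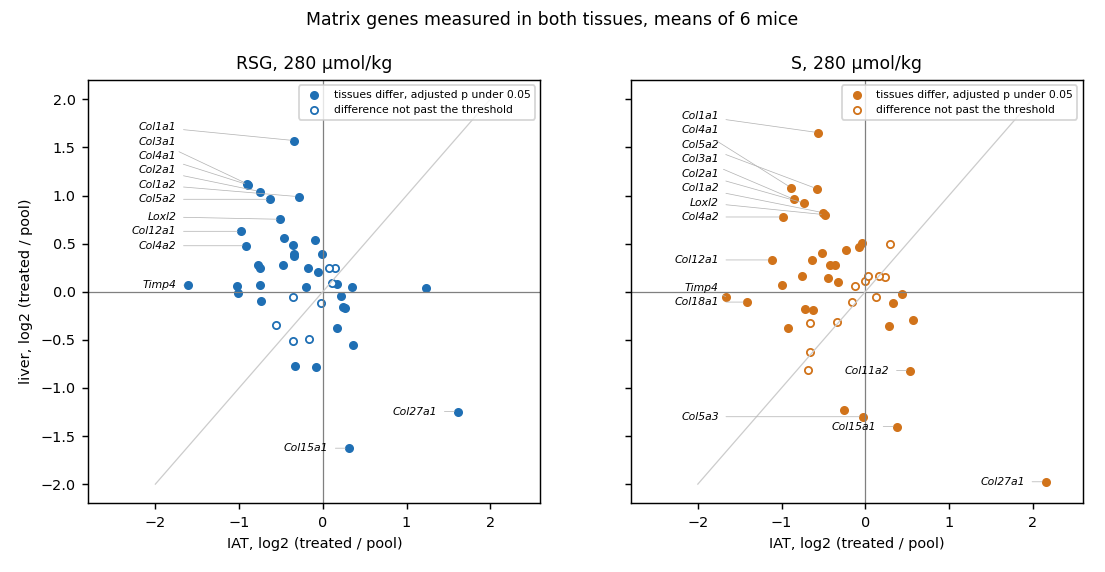
Mean log2 ratio to the pool in IAT (x axis) against liver (y axis) at 280 µmol/kg of RSG and S for the 46 genes measured in both tissues, with filled points where the tissues differed (adjusted p under 0.05) and names where the difference was over 1.2. Col1a1, Col3a1 and Col4a1 lie at the upper left and Col27a1 and Col15a1 at the lower right.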

How the data were processed

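Total RNA of inguinal adipose tissue and liver was measured on Agilent 2-colour whole mouse genome arrays, 2 per sample with the dyes swapped. The authors made spot intensity values and a log10 ratio, corrected for local background and for dye by Lowess, in Agilent Feature Extraction 9.5 (version per the submitters' processing notes). These deposited columns were read from 168 array files (45018 spots, 41174 probes). Which dye held the treated sample was given by file name only, and the pairs correlated at -0.961 to -0.551 before the swapped array was turned. Ratios were turned to treated over pool, converted to log2, and averaged over spots and over the 2 arrays of a pair. The authors' series value table, on a log scale with column medians between 0 and 0.053 in log2, served as an alternative. Its columns correlated with the array files at 0.830 or above, save 1 at 0.135 (IAT S 84, replicate 6). For IAT S 280 the columns of replicates 4, 5 and 6 (0.830, 0.900 and 0.844) were closest to the array files of replicates 6, 4 and 5 (0.987, 0.996 and 0.989). Mouse numbers here follow the array files. What further centring it had is not given in the sources used here.

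A probe entered the fit if the software marked it as well above background, in a treated group or in the pool, on 50% or more of the arrays (30792 probes in IAT, 25251 in liver and 24741 for the comparison of tissues), and 3 probes with missing values were left out. A gene stands for its kept probe with the highest mean signal, and genes whose probes were called in opposite directions are named. Group means were tested against 0 and against each other in limma 3.58.1 (R 4.3.3), with the 36 mice of a tissue in 1 fit, two-sided, with Benjamini-Hochberg adjustment over all kept probes. The fit was tested on simulated data. The number of arrays limits the precision. The 12 technical repeats entered no test. The pool is 1 sample, so p-values leave out the spread between control mice.

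Genes named with values were a fixed set of main collagens, lysyl oxidases, proteases and inhibitors; the 8 highest and 8 lowest called genes of one sign in all mice at 280 µmol/kg; and the 5 highest and 5 lowest called genes of each contrast. The members and lists were chosen with earlier results of these data known. Promoter windows came from RefSeq; probe positions are those of the array files (mm8). Alternatives tried were scan day and replicate number as blocks, normexp, the authors' table, no filter, median centring, only the groups compared, the mean of a gene's probes, the thresholds of the study's methods and leaving out each mouse.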

Additional observations from a re-analysis of the deposited data

Results flagged for a closer look

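In groups of 6 mice, a mouse was listed where its gap to the nearest other mouse, as a share of the group's whole range, was over Dixon's critical value. Of 540 group values of the named genes, 39 (7.22%) met that rule, where chance gives about 1 in 20. The mouse numbered 2 of RSG 280 accounted for 4 of them in each tissue, although the labels do not say whether these samples came from the same animal. IAT mouse 2 had log2 ratios of 0.56 for Col27a1, -0.43 for Col15a1, -0.54 for Loxl1 and -0.89 for Mmp15. Liver mouse 2 had -1.37 for Col1a1, -2.71 for Col15a1, 0.069 for Col11a1 and -0.15 for Col6a2. Mouse 5 of IAT RSG 28, the mouse that correlated least with its group, had -1.49 for Col28a1, -0.75 for Col4a2 and 1.90 for Mmp7, and mouse 3 of that group had -0.41 for Col2a1 and -0.46 for Col3a1.

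The epithelial protease Mmp7 stood out in single IAT mice of 4 groups, with 1.90 above, 3.23 at RSG 84 (mouse 3), -1.07 at S 84 (mouse 4) and -0.49 at S 280 (mouse 3). Other single IAT mice were at -1.47 for Col12a1 (RSG 280), -1.50 for Timp4 (RSG 84), 0.69 for Col11a1 (S 84), 0.34 for Col4a6 and 0.17 for Mmp19 (mouse 5 of S 28). Mouse 1 of S 84 was at -0.40 for Col6a1, -0.81 for Mmp13 and 0.80 for Mmp24. At S 280 single mice were at 0.086 for Col11a2 and 0.22 for Mmp19 (mouse 3), 0.075 for Col6a1 (mouse 4) and -1.76 for Mmp13 (mouse 2).

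In liver, single mice were at 0.27 for Col11a1 and 0.14 for Col4a4 (mouse 3 of RSG 28), 0.094 for Col4a2 and -0.80 for Mmp15 (mouse 5 of RSG 84), and -0.43 for Col20a1 and 0.32 for Col4a2 (mouse 3 of S 28). Further values were 0.028 for Mmp15 at S 28, -0.18 for Col6a2 at S 280 and, in mouse 1 of S 84, -0.32 for Col11a1, 0.094 for Col4a2 and -0.11 for Timp1.

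The effect at 280 µmol/kg differed between the tissues by a direct test of IAT minus liver. With RSG the differences listed were 2.86 for Col27a1, 1.94 for Col15a1, 1.19 for Mmp7, 0.91 for Col11a2 and 0.71 for Col20a1, and -2.02 for Col3a1, -2.001 for Col4a1, -1.91 for Col1a1, -1.79 for Col2a1 and -1.68 for Timp4. With S they were 4.13 for Col27a1, 1.78 for Col15a1, 1.36 for Col11a2, 1.27 for Col5a3 and 0.97 for Col20a1, and -2.22 for Col1a1, -1.97 for Col4a1, -1.81 for Col3a1, -1.75 for Col4a2 and -1.66 for Col2a1. The Mmp7 difference rested on the 2 IAT mice at 4.15 and 4.02 and was lost without either, and for Col2a1 the probes disagreed.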

How the results depend on the processing

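No named gene turned its direction except where a gene's probes were averaged or scan day was a block. The scan day as a block changed counts of called genes to 2 (IAT RSG 28), 15 (IAT S 84), 16 (liver S 28), 0 (IAT RSG against S at 84), 4 (liver RSG against S at 280), 8 (IAT RSG 280 against 28) and 5 (liver S 280 against 28, where Mmp25 turned to 0.021), and 2 IAT contrasts, RSG against S at 280 and S 280 against 28, could not be fitted. As a random block, chosen after seeing the data together with leaving out mouse 2, it gave 6 and 7 for RSG against S at 84 and 280 in IAT. The replicate numbers were not taken to pair the mice. The median correlation of mice with the same number was 0.130 in IAT and 0.102 in liver, against -0.030 and -0.027 for other numbers. In IAT 6 and in liver 10 of 36 mice were closest to their own number. The replicate block moved only the IAT contrast of RSG against S at 84, to 4. For that contrast normexp gave 1, the authors' values 5, only the groups compared 4 and averaged probes 4, and at 280 these gave 1, 1 and 0 for the first 3. Only the groups compared also gave 16 (IAT RSG 28), 1 (liver RSG against S at 28) and 8 (liver, at 280). The thresholds of the study's methods gave, from 28 to 280, 9, 16 and 27 for RSG and 8 and 11 (28 and 84) for S in IAT, 23, 21 and 19 for RSG and 19, 16 and 19 for S in liver, 1 and 3 for RSG against S (IAT 28, liver 280), and 18, 1 and 5 for 280 against 28 (IAT RSG, liver RSG, liver S). Leaving out single mice moved only the IAT contrasts of the compounds by over 1.5 times, to 1 to 5 genes at 84 (mouse 1 or 4 of RSG, mouse 2 of S) and 1 to 4 at 280 (mouse 2 or 5 of RSG, mouse 4 or 5 of S). The share of higher calls moved by over 10 points at RSG 28 in IAT with normexp (9 up and 14 down against 15 and 13) and at S 84 in IAT with centring (12 and 16) and normexp (11 and 15, against 16 and 14). With probes averaged, directions turned in IAT at RSG 280 for Col4a4 (-0.30), Col4a6 (-0.11) and Col6a2 (0.23), at S 280 for Col4a4 (-0.33), Col4a6 (-0.55), Col5a1 (0.21), Col5a3 (0.25) and Col6a2 (0.25), and between doses for Col4a4 (-0.39 RSG, -0.57 S) and Col4a6 (-0.26 RSG, -0.22 S). In liver they turned for Col2a1 (0.46 RSG, 0.31 S), Col5a1 (-0.10, S) and Col22a1 (0.0089, RSG against S), and between tissues for Col5a1 (0.31, S). The cause of the scan day changes was not tested, while the averaged values follow from probes that disagree. Genes near background, such as Col10a1 and Mmp16 in IAT and Col20a1 in liver, are limited by signal.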
